A study of Homo sapiens with 6 samples.

Results

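The genes described here are MYT1, its paralogs MYT1L and ST18, and 7 genes of the corepressor machinery that MYT1-type factors work with: SIN3A, SIN3B, HDAC1, HDAC2, KDM1A, RCOR1 and RCOR2. They were taken by symbol, and all 10 were found among the 32434 gene IDs of the deposited FPKM table (fragments per kilobase of exon, scaled between libraries by size factors). The libraries come from SK-N-BE(2), a human neuroblastoma cell line with amplified MYCN. The control group of 3 libraries, shNC replicates 1 to 3, carries a control hairpin, and 3 libraries, shMYT1 replicates 1 to 3, carry a hairpin against MYT1. Per the labels, lentivirus was applied for 24 h and puromycin for 48 h. The genotype field calls the second group a knockout, while the protocol describes a stable knockdown, and a hairpin leaves the gene itself in place. The sources used here do not give the hairpin sequences. Whether the replicates were grown separately is not labelled, and p-values then measure only the spread between these 6 libraries, which may be technical.

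MYT1, MYT1L and ST18 (also called MYT3) are DNA-binding proteins with C2HC zinc fingers that recognise sites with an AAGTT core, and they are known from developing neurons and endocrine cells. MYT1 and MYT1L repress genes of the progenitor state by recruiting SIN3 proteins, the scaffolds of a complex that holds the histone deacetylases HDAC1 and HDAC2. The same deacetylases sit in the CoREST complex, where an RCOR protein ties them to KDM1A (LSD1), the enzyme that removes methyl groups from lysine 4 of histone H3. The comparison asks how the transcripts of this machinery stood when MYT1 was lowered.

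Library depth was about 21079953 to 21677886 recovered fragments in shNC and 18158276 to 20301316 in shMYT1, so it moved with the group, and its part in the results was not tested. Neuroblastoma markers were present in all libraries: 8 of 8 were above the filter, with a summed level of 2900 to 3050 FPKM in shNC and 2510 to 2610 FPKM in shMYT1. Of 6 fibroblast markers 5 were tested, 1 rose and 3 fell. Their summed level was 154 to 159 FPKM in shNC and 105 to 108 FPKM in shMYT1. LUM held most of that difference, at 97.7 and 54.6 FPKM, and COL1A2 was at 0.102 and 0.166 FPKM. The 2 leukocyte markers in the table summed to 0.0713 to 0.156 FPKM in shNC and 0.0827 to 0.099 FPKM in shMYT1. Epithelial markers summed to 1.24 to 1.74 FPKM in shNC and 1.34 to 1.59 FPKM in shMYT1. Glial markers summed to 2.13 to 2.34 FPKM in shNC and 2.68 to 3.38 FPKM in shMYT1. The part of these markers in the results below was not tested. In bulk RNA, fewer cells with a transcript and less transcript per cell cannot be told apart.

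MYT1 (ENSG00000196132, chromosome 20, 64102394 to 64242253, plus strand, hg38) fell in the libraries that carry its hairpin, with the largest log2 fold change among the 9 of these genes that could be tested. Its level was 5.73, 5.12 and 5.18 FPKM in shNC replicates 1 to 3 and 4.20, 4.13 and 4.36 FPKM in shMYT1 replicates 1 to 3. Every library with the MYT1 hairpin was below the lowest control, and shNC replicate 1 stood above the other control libraries. The means were 5.34 ± 0.338 and 4.23 ± 0.115 FPKM (SD, n = 3 each), a difference of -20.8%. About 470 to 791 fragments lay behind each value. On the log2(FPKM + 1) scale used throughout for differences, which understates the change of low genes, the log2 fold change was -0.28 (95% interval -0.40 to -0.16, limma adjusted p = 0.0102). Of all tested genes, 84.2% had a smaller absolute log2 fold change. Transcript remained at most of its control level, and the protein was not measured.

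MYT1L (ENSG00000186487, chromosome 2, 1789113 to 2331664, minus strand), the paralog that persists in mature neurons and is used to convert other cells into neurons, was expressed and showed no difference that passed. It stood at 3.27, 3.42 and 3.07 FPKM in shNC and at 3.05, 2.76 and 3.44 FPKM in shMYT1. The groups overlapped, since the highest library of all was an shMYT1 library. The log2 fold change was -0.06 (95% interval -0.23 to 0.11, limma adjusted p = 0.589), an interval that holds both a fall and a small rise. The antisense genes MYT1L-AS1 and AC093390.2 share 3.8% and 1.2% of its exon bases, and no strand setting is stated, so those fragments cannot be assigned with certainty.

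ST18, the third paralog (ENSG00000147488, chromosome 8), was at the edge of detection. Its fragments numbered 1, 2 and 0 in shNC and 8, 2 and 2 in shMYT1 replicates 1 to 3. A count of 0 in shNC replicate 3 allows up to 3 fragments, or 0.00994 FPKM on its exons, and intervals of this kind cover counting error only. The 12 fragments of the shMYT1 group came mostly from replicate 1. It is the only one of the 10 genes under the filter of a mean of 1 FPKM. In the fit without that filter it had limma adjusted p = 0.739.

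**Figure D1:**
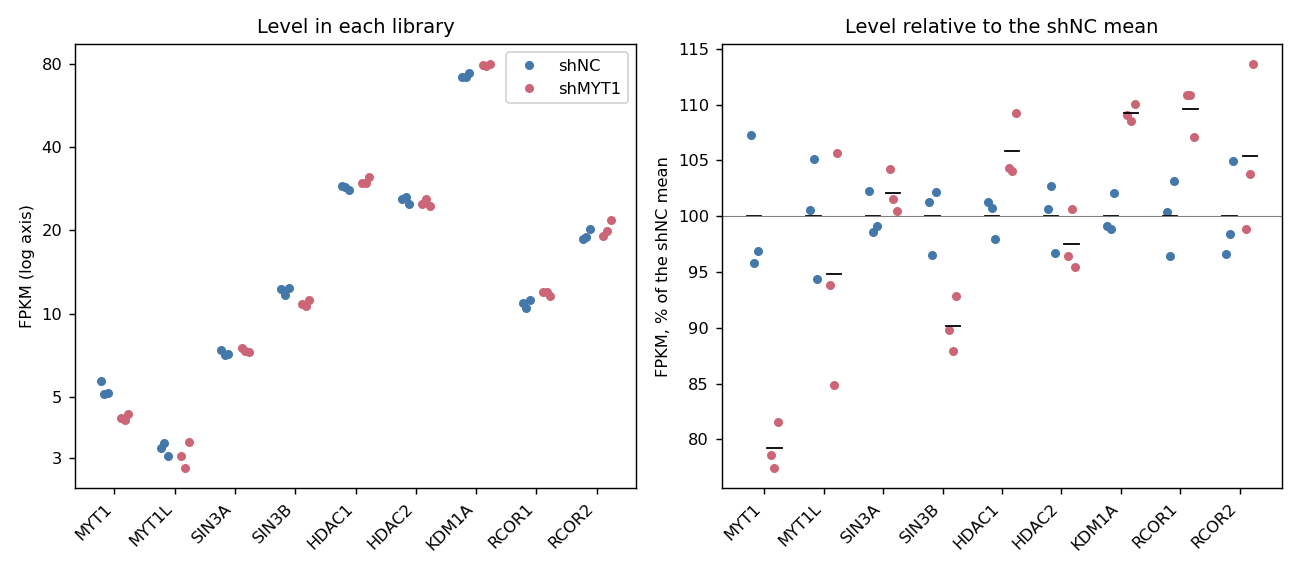
FPKM of the 9 genes above the filter in each of the 6 libraries, on a log axis (left) and as a percentage of the gene's shNC mean (right). Points are libraries and black bars are group means. MYT1 falls to 4.13 to 4.36 FPKM in all shMYT1 libraries, while SIN3A, HDAC2, MYT1L and RCOR2 overlap between groups. ST18, near 0, is not drawn.

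SIN3B fell by a small amount and SIN3A did not pass. SIN3A (ENSG00000169375, chromosome 15), the paralog essential for early development, was at 7.37, 7.10 and 7.14 FPKM in shNC and 7.51, 7.32 and 7.24 FPKM in shMYT1. Its groups overlapped, with a log2 fold change of 0.03 (95% interval -0.06 to 0.11, limma adjusted p = 0.624). The sign of this value turns to -0.01 when libraries are scaled to one FPKM total or the regional median, described below, is taken off. SIN3B (ENSG00000127511, chromosome 19, 16829400 to 16880353, plus strand), the paralog tied to cell cycle exit, was at 12.2, 11.7 and 12.3 FPKM in shNC. It was at 10.9, 10.6 and 11.2 FPKM in shMYT1, below every control library. Its mean fell by 9.83%, with a log2 fold change of -0.14 (95% interval -0.23 to -0.05, limma adjusted p = 0.0384). The SIN3B call was lost when any 1 of the 6 libraries was left out (adjusted p from 0.0525 to 0.112).

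Neither deacetylase passed the test. HDAC1 (ENSG00000116478, chromosome 1) was at 28.9, 28.8 and 28.0 FPKM in shNC and at 29.8, 29.7 and 31.2 FPKM in shMYT1. All 3 shMYT1 libraries lay above all shNC libraries, by a mean of 5.84%, but the difference did not pass (log2 fold change 0.08, SE 0.03, limma adjusted p = 0.114). HDAC2 (ENSG00000196591, chromosome 6), whose protein is close to that of HDAC1 and can stand in for it in most complexes, was at 25.9, 26.4 and 24.9 FPKM in shNC. Its shMYT1 libraries were at 24.8, 25.9 and 24.6 FPKM and overlapped with the controls (log2 fold change -0.03, 95% interval -0.12 to 0.05, limma adjusted p = 0.522). The summed level of HDAC1 and HDAC2 was 54.3 ± 1.26 FPKM in shNC and 55.3 ± 0.626 FPKM in shMYT1 (SD, n = 3 each), with overlapping groups.

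KDM1A (ENSG00000004487, chromosome 1, 23019443 to 23083689, plus strand), the demethylase of the CoREST complex, rose by a small amount. It was at 71.7, 71.5 and 73.9 FPKM in shNC and at 78.9, 78.6 and 79.7 FPKM in shMYT1, and the groups did not overlap. Its mean rose from 72.4 ± 1.31 to 79.1 ± 0.569 FPKM (SD, n = 3 each), or 9.21%. The log2 fold change was 0.13 (95% interval 0.07 to 0.18, limma adjusted p = 0.0123), but without shNC replicate 2 KDM1A did not pass (adjusted p = 0.0573). These values rest on 7558 to 8570 fragments in each library.

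Neither CoREST scaffold gene passed the test. RCOR1 (ENSG00000089902, chromosome 14), which bridges KDM1A to the deacetylases and to nucleosomes, was at 10.9, 10.5 and 11.2 FPKM in shNC and at 12, 12 and 11.6 FPKM in shMYT1. The groups did not overlap, and the mean was 9.59% higher in shMYT1. Its log2 fold change of 0.12 (95% interval 0.04 to 0.21) missed the threshold, with limma adjusted p = 0.0524, and over 16 alternative settings its adjusted p lay between 0.033 and 0.207. It passed in 5 of them, among them the fit without shNC replicate 3 (adjusted p = 0.0474). RCOR2 (ENSG00000167771, chromosome 11), a paralog known from neural progenitors, was at 18.6, 18.9 and 20.2 FPKM in shNC and at 19.0, 20 and 21.9 FPKM in shMYT1. Its groups overlapped (log2 fold change 0.07, 95% interval -0.06 to 0.21, limma adjusted p = 0.412).

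Of the 9 genes tested, 1 rose (KDM1A), 2 fell (MYT1 and SIN3B) and 6 did not pass. Over all 14106 genes tested, 24.2% passed, 11.9% higher and 12.3% lower, so 3 of 9 is near the background. The groups did not overlap in 5 of the 9 (MYT1, SIN3B, HDAC1, KDM1A and RCOR1), against 42.3% of all genes. For each of the 5, a two-sided exact permutation test returned p = 0.1, the smallest that 3 libraries against 3 allow. The median absolute log2 fold change was 0.08 over the 9 genes and 0.11 over all genes tested. All 7 partner genes lay within 0.15 of 0.

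**Figure D2:**
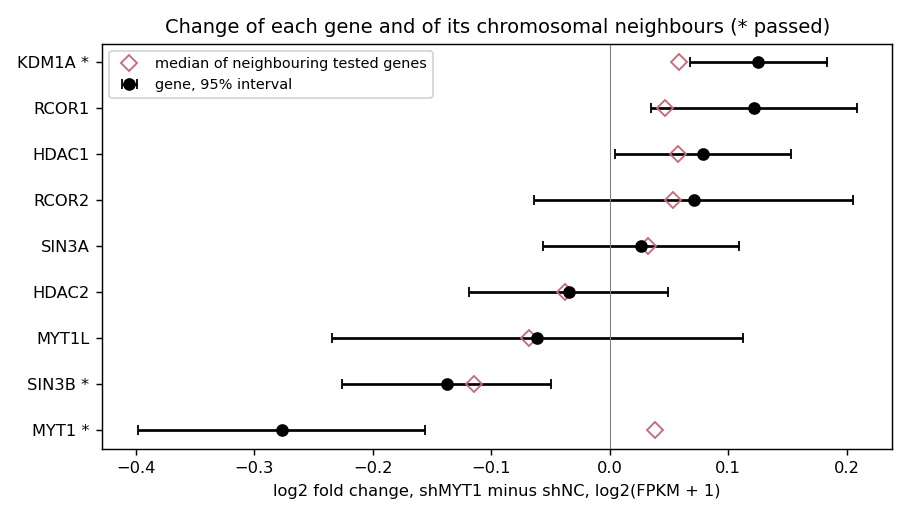
Log2 fold change (shMYT1 minus shNC, on log2(FPKM + 1)) of the 9 tested genes with its 95% interval (black), and the median over the tested genes around each on its chromosome (open diamonds). Stars mark genes past the threshold. MYT1, at -0.28, stands apart from its neighbours at 0.04, while SIN3B at -0.14 lies close to its neighbours at -0.11.

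The partner genes were then set beside the tested genes that flank them, up to 25 on each side. Around SIN3B on the short arm of chromosome 19 the median log2 fold change was -0.11. Of its 50 neighbours 42 were below 0, 12 fell and 2 rose, and 22 were lower than SIN3B itself. With the regional median taken off, SIN3B had a log2 fold change of -0.02 (limma adjusted p = 0.714). Around KDM1A on chromosome 1 the median was 0.06, with 13 of 50 neighbours rising and 2 falling, and 36 had a lower value than KDM1A. With that median taken off, KDM1A had a log2 fold change of 0.07 and no longer passed (limma adjusted p = 0.107). RCOR1 went to 0.07 in the same fit (limma adjusted p = 0.207) and HDAC1 to 0.02 (limma adjusted p = 0.688).

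No neighbour of MYT1 was as low as MYT1. It lies near the end of chromosome 20, where 26 tested genes flank it, and all 26 had a higher log2 fold change. Of these 7 rose and 0 fell, and their median was 0.04. With the regional median taken off, MYT1 had a log2 fold change of -0.32 (limma adjusted p = 0.00816). It is the only one of the 9 genes that passed in this fit, in which 18.1% of all genes passed.

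**Figure D3:**
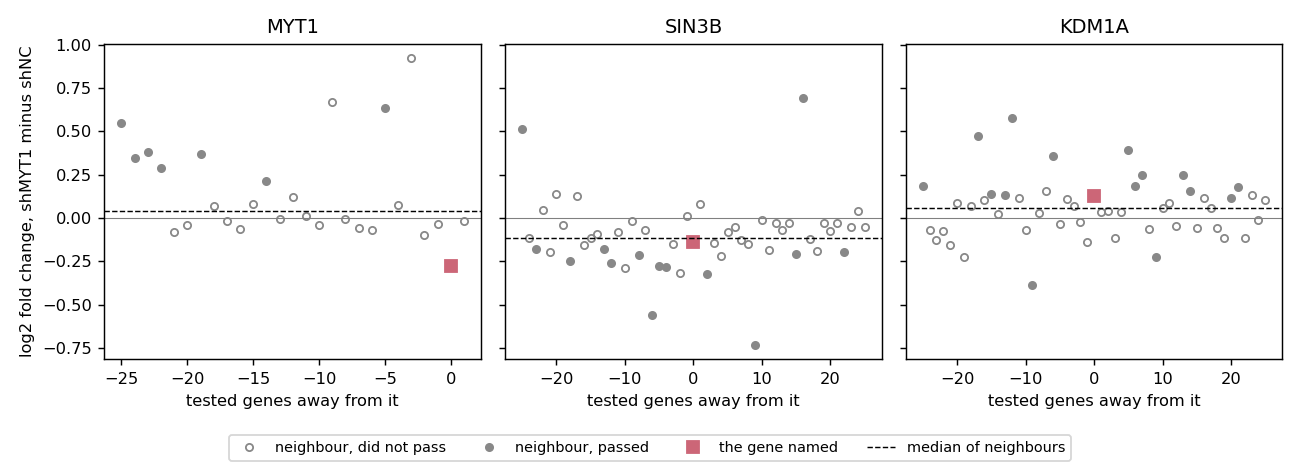
Log2 fold change (shMYT1 minus shNC) of the tested genes on either side of MYT1, SIN3B and KDM1A, by their order along the chromosome. Filled circles passed the threshold, the square is the gene named and the dashed line is the median of its neighbours. No neighbour of MYT1 lies below it, while 22 of 50 neighbours of SIN3B lie below SIN3B.

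Ratios within a library do not depend on how libraries were scaled, and 5 pairs were compared. HDAC1 over HDAC2 was 1.12, 1.09 and 1.12 in shNC and 1.2, 1.15 and 1.27 in shMYT1. SIN3A over SIN3B was 0.602, 0.609 and 0.578 in shNC and 0.692, 0.689 and 0.646 in shMYT1. Both ratios were higher in every shMYT1 library, by 0.12 and 0.18 on the log2 scale, each with an exact permutation p = 0.1 (0.25 adjusted over the 5 pairs). MYT1 over MYT1L was 1.75, 1.5 and 1.69 in shNC and 1.38, 1.5 and 1.27 in shMYT1, which met at replicate 2 of each group (exact permutation p = 0.2, adjusted 0.333). RCOR1 over RCOR2 overlapped between groups (exact permutation p = 0.6). KDM1A over RCOR1 was 6.54 to 6.86 in all 6 libraries, and its mean log2 ratio was 2.74 ± 0.03 in shNC and 2.73 ± 0.04 in shMYT1 (SD, n = 3 each). No pair could pass, since 3 libraries against 3 cannot go below 0.1.

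**Figure D4:**
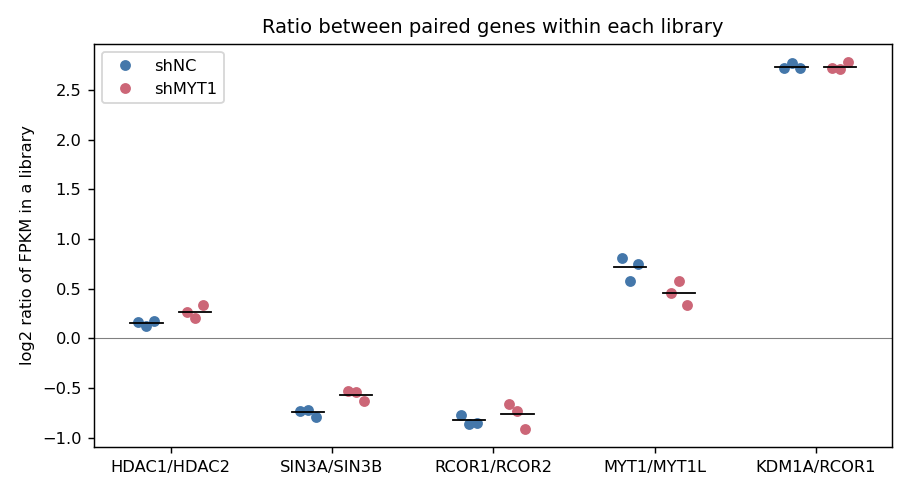
Log2 ratio of FPKM between paired genes within each library. Points are libraries, and black bars are group means. HDAC1/HDAC2 and SIN3A/SIN3B lie higher in all 3 shMYT1 libraries, and KDM1A/RCOR1 lies between 2.71 and 2.78 in all 6.

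Levels per kilobase of all annotated exons put KDM1A first in shNC, at 72.4 FPKM, followed by HDAC1 (28.5), HDAC2 (25.7), RCOR2 (19.2), SIN3B (12.1), RCOR1 (10.8), SIN3A (7.21), MYT1 (5.34), MYT1L (3.25) and ST18 (0.00328). No neighbours in this order overlapped across the shNC libraries, but SIN3B was above RCOR1 in only 3 of 6 libraries, those of shNC. KDM1A exceeded the summed level of RCOR1, RCOR2 and RCOR3, which was 37.3 ± 0.379 FPKM in shNC and 39.1 ± 1.10 FPKM in shMYT1 (SD, n = 3 each). The order of the MYT1 paralogs depends on the exon length used. The union of all annotated MYT1L exons is 35151 bases, 4.80 times the 7322 bases of its principal transcript, against 1.16 times for MYT1. Per kilobase of principal transcript, a setting chosen after the data were seen, MYT1L was at 15.6 and MYT1 at 6.20 in shNC, so that MYT1L was the higher. Both values were rescaled with GENCODE 29 exon lengths, which for MYT1, MYT1L and KDM1A differ from those behind the deposited FPKM, so they are approximate. The same rescaling put SIN3B (20.7) level with RCOR2 (20.2), with overlapping libraries, and left KDM1A first. It also put SIN3A (13.3) above RCOR1 (11.7) in all 6 libraries, and MYT1L above RCOR1 and, in 5 of 6 libraries, above SIN3A. Changes between groups do not depend on the length, other than through the pseudocount.

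The sequence before the start sites was read for the AAGTT core that MYT1-type fingers recognise. The windows are the 250 bases before RefSeq start sites on GRCh38.p14. The windows of 8 of the 10 genes were matched by symbol, and 4 are shown: those of HDAC1, KDM1A and RCOR1, the partners that lay higher in every shMYT1 library, and that of SIN3B, the partner that fell. Capitals mark AAGTT on the gene's strand, and its reverse complement AACTT was searched as well.
HDAC1, chr1:32291833-32292082, plus strand: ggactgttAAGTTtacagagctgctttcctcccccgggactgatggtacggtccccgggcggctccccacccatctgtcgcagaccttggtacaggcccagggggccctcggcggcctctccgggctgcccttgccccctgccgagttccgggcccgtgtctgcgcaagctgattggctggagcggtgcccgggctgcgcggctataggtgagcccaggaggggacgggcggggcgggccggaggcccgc
KDM1A, chr1:23019218-23019467, plus strand: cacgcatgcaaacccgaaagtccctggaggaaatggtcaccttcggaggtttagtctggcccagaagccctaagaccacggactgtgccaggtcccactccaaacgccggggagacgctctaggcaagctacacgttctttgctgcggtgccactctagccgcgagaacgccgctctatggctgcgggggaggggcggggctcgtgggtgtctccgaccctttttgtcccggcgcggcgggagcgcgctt
RCOR1, chr14:102592399-102592648, plus strand: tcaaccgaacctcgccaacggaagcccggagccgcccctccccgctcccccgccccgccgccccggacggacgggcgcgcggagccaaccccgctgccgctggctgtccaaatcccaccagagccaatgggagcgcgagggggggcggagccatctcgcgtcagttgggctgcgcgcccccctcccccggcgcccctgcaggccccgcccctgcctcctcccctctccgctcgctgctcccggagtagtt
SIN3B, chr19:16863024-16863273, plus strand: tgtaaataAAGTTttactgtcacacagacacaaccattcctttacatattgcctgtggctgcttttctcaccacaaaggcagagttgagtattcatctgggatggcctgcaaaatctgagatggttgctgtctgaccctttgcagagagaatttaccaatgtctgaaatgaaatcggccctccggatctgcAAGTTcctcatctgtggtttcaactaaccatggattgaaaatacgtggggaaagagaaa

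HDAC1 held 1 match, at position -242 from the start site. SIN3B held 2, but the start site listed there lies 33874 bases inside the gene. KDM1A and RCOR1 held none in either direction, and neither did the windows of SIN3A. The windows of MYT1 and HDAC2 held none as well, and their start sites lie 62058 and 40160 bases inside the gene. MYT1L has 4 listed windows, of which 3 held matches, with AAGTT at -77 and -153 and AACTT at -226 and -19. Of all 35116 windows of this length, 30.3% held AAGTT or AACTT. The windows of RCOR1 and HDAC1 were 76.4% and 71.6% G or C, that of KDM1A 64.0% and that of SIN3B 42.8%, beside a median of 58.0% over all windows. Among tested genes with a match, 14.4% rose and 13.6% fell, against 13.5% and 11.6% of those without. For the longer AAAGTTT or AAACTTT, each of which contains the shorter motif and which 3.75% of windows held, 15.0% rose and 13.5% fell, against 13.7% and 12.1% without. A match is a description of letters and says nothing of binding.

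The other subunits of these complexes, in lists chosen with earlier results of these data known, were counted in the same fit, in which 11.9% of all genes tested rose and 12.3% fell. Of 18 tested SIN3 complex subunits, 2 rose, 3 fell and 13 did not pass, with a median log2 fold change of -0.03 beside -0.005 over all genes. The 2 became 1 in 5 of the 6 fits that left out 1 library, all but that without shMYT1 replicate 3. The 3 that fell became 2 in each fit that left out 1 library. They were 2 without a filter, without a variance trend, under quantile normalization or the replicate block, and 5 on scaling to one FPKM total. SAP30, a subunit that stabilises the SIN3-deacetylase contact, fell from 63.8, 56.5 and 58.7 to 48.7, 49.3 and 47.3 FPKM (log2 fold change -0.29, limma adjusted p = 0.00596). SUDS3, another core subunit, fell from 16.5 ± 0.0968 to 14.3 ± 0.531 FPKM (SD, n = 3 each). SAP18 rose from 18.5 to 22.7 FPKM (log2 fold change 0.28). It lies on chromosome 13 among neighbours with a median of 0.24, and with that taken off it was at 0.04 (limma adjusted p = 0.651).

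Of 11 tested LSD1-CoREST subunits, 3 rose and 0 fell, with a median log2 fold change of 0.04. Only 1 rose without shNC replicate 2 or without shMYT1 replicate 1, and 2 in the other fits that left out 1 library. ZNF217, a zinc finger protein found with CoREST, rose from 11, 11.2 and 10.8 to 14.2, 12.9 and 13.6 FPKM (log2 fold change 0.28, limma adjusted p = 0.00378). HMG20B, the HMG-box subunit, rose from 14.2 to 17 FPKM (log2 fold change 0.25). It did so among chromosome 19 neighbours with a median of -0.17, and MFSD12, on the other strand, shares 9.6% of its exon bases. ZMYM2 rose from 6.28 to 7.36 FPKM, within chromosome 13 neighbours with a median of 0.24, and was at -0.04 with that taken off (limma adjusted p = 0.56). RCOR3, the third CoREST paralog, did not pass (log2 fold change -0.04).

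HDAC1 and HDAC2 also serve the NuRD complex, of which 4 of 13 tested subunits rose and 1 fell (median log2 fold change 0.01). The 4 became 1 or 2 whichever library was left out, and 1 without a filter, without a variance trend or on scaling to one FPKM total. RBBP4 and RBBP7 are in both this list and the SIN3 list. CHD5, the neuronal remodeller of the complex, fell from 1.49, 1.61 and 1.88 to 0.841, 0.823 and 0.968 FPKM (log2 fold change -0.50, limma adjusted p = 0.00896). MTA1 rose from 25.3 to 30.2 FPKM and MTA2 from 36.6 to 40 FPKM. Of the NCoR complex subunits, for which no count is given, NCOR1 fell from 8.83 to 7.89 FPKM and TBL1X from 8.17 to 6.79 FPKM. Among the other zinc-dependent deacetylases, 7 of 9 were tested, 1 rose and 1 fell (median 0.05). HDAC9, a class IIa enzyme, fell from 19.5, 19.5 and 19.2 to 14.8, 14.7 and 14.0 FPKM (log2 fold change -0.39, limma adjusted p = 0.000525). HDAC7 rose from 11.5 to 12.6 FPKM, a call that held in 1 of the 6 fits that left out 1 library.

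Factors that bring these complexes to DNA were counted next. Of 10 tested factors that recruit CoREST or SIN3, 2 rose and 4 fell, with a median log2 fold change of -0.15. None rose without shMYT1 replicate 1, without shMYT1 replicate 2 or without shNC replicate 2, while 3 or 4 fell in each fit that left out 1 library. SNAI2, which recruits KDM1A through its SNAG domain, fell from 25.3, 26.3 and 26.1 to 19.5, 15.7 and 15.9 FPKM (log2 fold change -0.58, limma adjusted p = 0.00325), among chromosome 8 neighbours with a median of -0.28, and was at -0.31 with that taken off (limma adjusted p = 0.0393). INSM1, a SNAG factor of neuroendocrine cells, fell from 4.90, 4.68 and 5.55 to 3.36, 2.92 and 3.48 FPKM (log2 fold change -0.51, limma adjusted p = 0.0046). MXD4, a MYC antagonist that recruits SIN3, rose from 11 to 13.4 FPKM. The other factor that rose was REST, named here after its values were seen, by 0.19 on the log2 scale. REST did not pass in the fits above in which none rose.

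Among known targets, of 16 tested neuronal genes with a known site for REST, which recruits both SIN3 and CoREST, 2 rose and 4 fell (median log2 fold change -0.07). GRIA2, a glutamate receptor gene, fell from 5.57, 5.63 and 4.95 to 2.33, 2.54 and 2.01 FPKM (log2 fold change -0.96), and GRIN1 from 5.78 to 3.56 FPKM. L1CAM, a neural adhesion gene, rose from 28.4 to 39.9 FPKM. Of 16 tested Notch pathway genes, a pathway that MYT1-type factors are known to repress in neurogenesis, 4 rose and 1 fell (median -0.02). The 4 became 2 on dropping shNC replicate 2 or any 1 of the shMYT1 libraries, with the replicate block, without a filter and at a minimum of 5 FPKM. NOTCH3 rose from 5.38, 5.24 and 5.63 to 8.32, 7.49 and 8.70 FPKM (log2 fold change 0.51, limma adjusted p = 0.00158), among chromosome 19 neighbours with a median of -0.12. HEY1, a Notch effector, fell from 20.6 to 14.6 FPKM among chromosome 8 neighbours with a median of -0.23, and its log2 fold change of -0.47 became -0.24 with that taken off (limma adjusted p = 0.0144). LFNG rose from 2.25 to 3.05 FPKM. HES1, a Notch effector that MYT1 is known to repress, named here after its values were seen, rose by 0.29 on the log2 scale. DTX1, the remaining gene that rose, did so by 0.26. No fit with 1 library fewer is given for HES1 or DTX1, so either call may be among those lost above. NEUROD1, a proneural factor, fell from 3.85, 3.8 and 4.05 to 1.59, 2.03 and 2.11 FPKM (log2 fold change -0.76, limma adjusted p = 0.00131).

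Of the 23 genes named by rule from these lists, 16 passed in each fit that left out 1 library. The other 7 lost their call in at least 1: HMG20B, ZMYM2, MTA2, NCOR1, HDAC7, MXD4 and LFNG. The call held in 1 of the 6 fits for ZMYM2, MTA2, HDAC7 and LFNG, in 2 for MXD4 and in 3 for HMG20B. MTA2, HDAC7, MXD4 and LFNG also lost it without a filter, and MTA2 and HDAC7 without a variance trend and on scaling to one FPKM total. ZMYM2, MTA2 and LFNG lost it with the regional median taken off (limma adjusted p = 0.56, 0.132 and 0.063), LFNG also with the replicate block. NCOR1 lost its call in all 6 fits that left out 1 library (adjusted p from 0.0542 to 0.137). It also lost it under the block by replicate number, under quantile normalization, without a filter, without a variance trend, and with the regional median taken off, where its log2 fold change of -0.15 became -0.04 (limma adjusted p = 0.523). HMG20B lost it without shNC replicate 2, shMYT1 replicate 1 or shMYT1 replicate 3 (adjusted p up to 0.0613). Fragments cannot be assigned with certainty where exons overlap another gene's, which is so for ZNF217, CHD5, MTA1, NCOR1, HDAC7, MXD4, GRIN1, L1CAM and NEUROD1 as well as HMG20B.

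**Figure D5:**
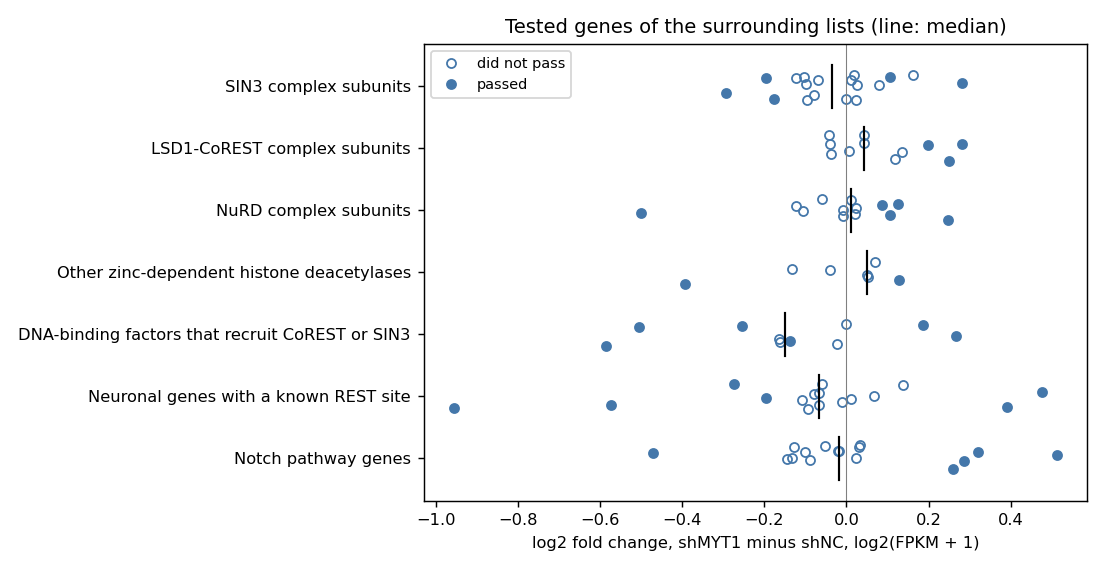
Log2 fold change (shMYT1 minus shNC, on log2(FPKM + 1)) of every tested gene in the 7 lists around the MYT1 family and its partners for which counts are given. Filled circles passed the threshold and the black line is the list's median. SIN3, CoREST and NuRD subunits centre near 0, between -0.03 and 0.04. The lowest genes, GRIA2, SNAI2, GRIN1 and INSM1, lie between -0.96 and -0.51, and the highest, NOTCH3 and L1CAM, at 0.51 and 0.48.

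The genes whose pattern over the 6 libraries lay nearest to that of MYT1 were FBXO32, GPR27 and PSMD11, out of 11175 protein-coding genes. Likeness was the root mean square difference of log2(FPKM + 1), each gene centred on its own mean: 0.016 for FBXO32, 0.019 for GPR27 and 0.021 for PSMD11. MYT1's own root mean square deviation was 0.146. FBXO32 was at 1.59, 1.40 and 1.37 FPKM in shNC and 1.04, 0.994 and 1.04 FPKM in shMYT1. Like MYT1, all 3 were highest in shNC replicate 1, and their log2 fold changes were -0.28 to -0.29. Both traits follow from picking the nearest genes over these same 6 libraries and are not separate results.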

How the data were processed

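Total RNA of 6 SK-N-BE(2) libraries was sequenced. The authors deposited 1 table of FPKM. The submitters' processing notes name HISAT2 (2.0.5), featureCounts (1.5.0-p3) and hg38. No source used here gives the annotation or the strand setting. Symbols, exons and positions came from GENCODE 29, which held 32301 of 32434 IDs. For 95.4% of these, FPKM times exon length was a whole number of fragments in all 6 libraries (tolerance 0.01), which gave depths and fragments. Exon lengths of MYT1, MYT1L and KDM1A differ from GENCODE 29, so their fragments are approximate. Size factors by the median of ratios were already equal between libraries in the deposited values.

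A limma 3.58.1 model in R 4.3.3, with a trended prior variance, compared the groups on log2(FPKM + 1) for genes whose mean over the 6 libraries reached 1 FPKM. Tests were two-sided with Benjamini-Hochberg adjustment over all genes tested and a threshold of 0.05. On simulated data the same fit recovered 25 of 50 genes changed 1.25-fold and 48 of 50 changed 4-fold, and called 8 of 13040 unchanged genes. Changes below 1.25-fold, where the partner genes lay, were not simulated. Members and lists were chosen with earlier results of these data known. The rule named the 10 members, up to 3 passing genes per list with the largest change, and the 3 genes most like MYT1. Other settings used another pseudocount (0.1), other filters, scalings or variance models, protein-coding genes, a replicate block, the regional median over up to 50 neighbouring genes, voom on recovered fragments, or 1 library fewer. Promoter windows came from RefSeq. In 2 lists (NCoR complex, proneural factors) 1 gene each is not reported here, so no counts are given for them.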

Additional observations from a re-analysis of the deposited data

How the results depend on the processing

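The fall of MYT1 passed in all 15 alternatives that test it (log2 fold change -0.33 to -0.23, adjusted p 0.000236 to 0.0387). The minimum of 5 FPKM leaves it out. KDM1A passed in 14 of 16 and SIN3B in 7 of 16 alternatives, and HDAC1, HDAC2, SIN3A, RCOR2 and MYT1L in none. ST18 enters only the fit without a filter. The number of the 10 genes that rose was 1, and it was 2 (with RCOR1) at a minimum of 5 FPKM, with protein-coding genes only, with quantile normalization and with voom. It was 0 with the regional median removed, and 0 to 2 when 1 library was left out. The number that fell was 2, and it was 1 at a minimum of 5 FPKM, without a filter, without a variance trend, with the regional median removed, and in each fit that left out 1 library. Log2 fold changes turned to 0.0072 for MYT1L, 0.0027 for HDAC2 and -0.0065 for SIN3A with the regional median removed, to -0.0056 for SIN3A on scaling to one FPKM total, and to 0.0039 for the KDM1A/RCOR1 ratio with a pseudocount of 1. That ratio's difference was -0.0276 to 0.0125 when 1 library was left out. The cause was not tested. Of all genes, 3420 passed, and 2038 to 3048 did when 1 library was left out (2038 on dropping shNC replicate 2, 2197 for shMYT1 replicate 1, 2199 for shNC replicate 1), fits that have fewer samples. On scaling to one FPKM total 36.4% of calls were higher in shMYT1, against 49.2%, and the median of all genes was -0.035.

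With the replicate block, 3381 genes passed and MYT1 had a log2 fold change of -0.28 (adjusted p = 0.0252). Same-numbered libraries deviated together by correlations of 0.033, 0.013 and 0.043 across genes, too low to treat the numbers as pairs, though each library correlated best with its own number. The block changed no call among the 9 genes.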
